A study of Canis lupus familiaris with 21 samples.

Results

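Gene expression of MDCK-II cells overexpressing E47 was compared with that of MDCK-II cells overexpressing Twist1 or Twist2, 3 basic helix-loop-helix (bHLH) factors. The members were the 9 samples whose titles name E47, Twist1 or Twist2, 3 of each, out of 21 samples in the series. They were compared through the columns that carry their titles in the deposited value table. Each column holds ratios of Cy5, the line's RNA, over Cy3, labelled as RNA of MDCK-II control cells with an empty pLKO vector. The other 12 samples, used here for comparison, are MDCK-II lines overexpressing Snail1, Snail2, Zeb1 or Zeb2, with 3 samples each.

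MDCK-II is an epithelial line from dog kidney. Clones were isolated with rings after selection in G418 or puromycin, and every sample is described as a biological replicate. Whether the 3 samples of a line came from different clones or cultures is not stated. The p-values therefore rest on the variation among these arrays, and some of it may be technical. The labels name no promoter for any factor. The source label of the Cy3 channel conflicts with the extraction protocol, which describes tumour RNA and a pooled reference. In a difference between lines the Cy3 RNA cancels under either description, as long as it was the same on all arrays.

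bHLH factors bind DNA as dimers at short motifs called E-boxes. E47, a product of the TCF3 gene, is an E protein, the widely expressed class of bHLH factors that forms homodimers and also pairs with tissue-restricted members. Twist1 and Twist2 are closely related tissue-restricted members that form dimers with E proteins or with themselves. All 3 factors are known as repressors of E-cadherin, the adhesion molecule of epithelial junctions, and as inducers of the epithelial to mesenchymal transition.

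The sample labels of the value table and of the scanner files conflict, and the direction of much of the comparison depends on which is right. Over the tested probes, 15 of the 21 columns equalled the deposited ratios of a scanner file within 1e-04 on the log10 scale at 97.7% or more of the probes, and 0 of the 15 equalled the file recorded for their own sample. The E47 columns equalled, in order, the files recorded for the second and first samples of Twist1 and the first of Snail2. The Twist1 columns equalled the files recorded for the third and second samples of E47 and the third of Twist2. The first and second Twist2 columns equalled each other's files. The third Twist2 column equalled no file and lay nearest to the file recorded for the third Twist1 sample (r = 0.965 across probes), so its scale and direction were taken to be those of the others. On 1 slide the arrays that are E47 by their files are Twist1 by their columns, and the reverse. Values below follow the column titles unless the recorded files are named.

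Under the recorded samples of the scanner files, E47 and Twist could not be told apart at any spot. With the scanner software's processed signals, limma called 0 of 30183 spots (0%) at an adjusted p under 0.05 and a difference of 1 or more on the log2 scale. There were 960 spots at an unadjusted p under 0.05, and the smallest adjusted p was 0.976. Signals corrected by normexp and loess also gave 0 calls (0%), with 743 spots at an unadjusted p under 0.05. At the 3739 spots called from the columns, the difference of the recorded arrays, in processed signals, had the opposite sign at 3135 and the same sign at 604. The turn lay in the comparison with Twist1, where 6826 of the 6935 spots called from the columns had the opposite sign and 109 the same. Against Twist2 the recorded arrays had the same sign at 1342 of 1819 spots and the opposite sign at 455, and with normexp and loess at 1192 and 627. E47 columns correlated with each other across spots at r = 0.94 to 0.946, while the files recorded for E47 correlated with each other at 0.693 to 0.724. The 3 Twist1 columns correlated at 0.717 to 0.914, and the files recorded for Twist1 at 0.837 to 0.94. For Twist2 these ranges were 0.922 to 0.952 and 0.765 to 0.922. These correlations describe the arrays, since spots are not independent replicates and all ratios share a control channel.

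**Figure D1:**
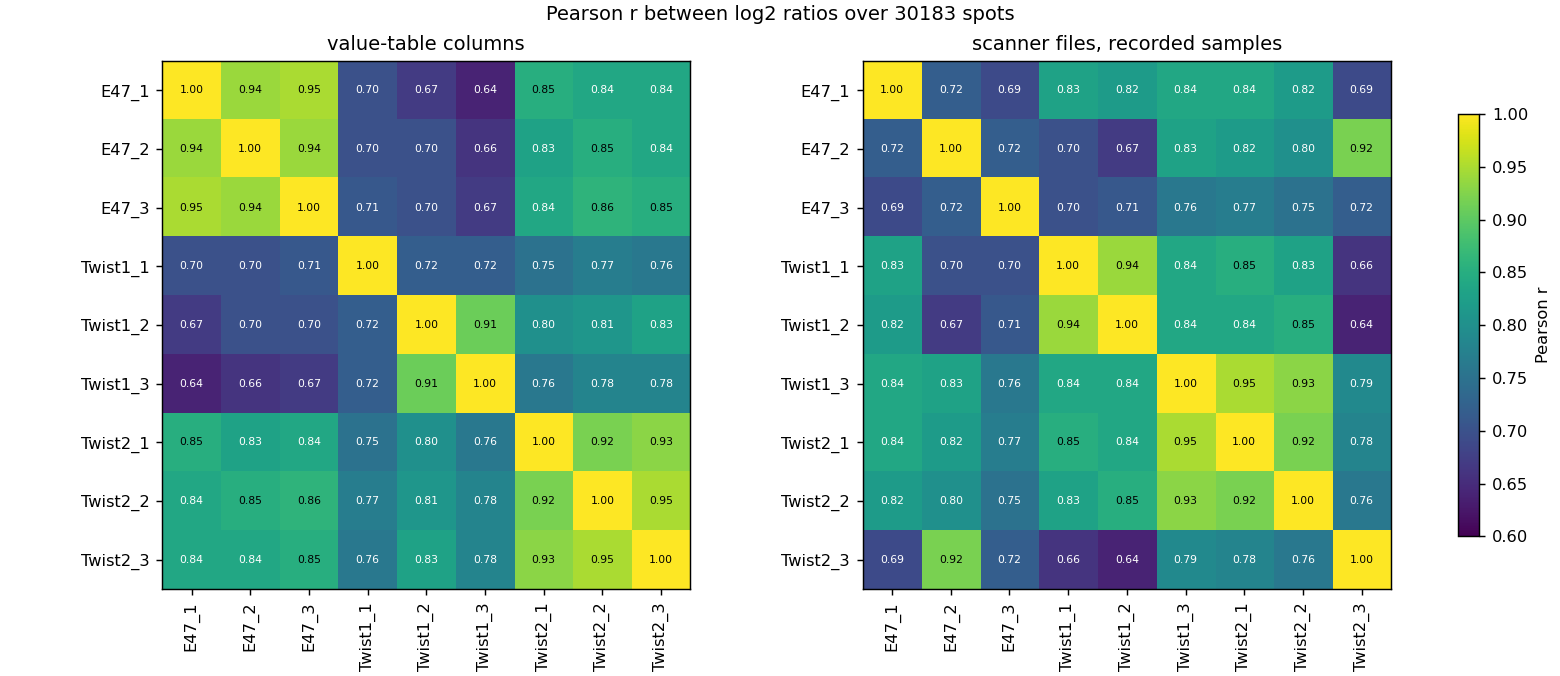
Pearson r between the log2 ratios of 9 value-table columns (left) and of 9 scanner files under their recorded samples (right), over 30183 spots, with colour from 0.6 to 1. The E47 columns form a block at 0.94 or above on the left, and the files recorded for E47 do not on the right.

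Spots are given without gene names. Probe IDs and transcript names come from a grid file, and its design number was not that of the slide in 21 of 21 files. Over 834 pairs of probes listed under a common transcript name, mean brightness correlated with r = -0.063. The IDs printed here are the grid's and mark a place on the array, given as row and column out of 532 rows and 85 columns. The overexpressed genes themselves could therefore not be checked.

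Of 42034 probes, 30183 were tested, those that 3 or more of the 21 arrays measured well above background in the Cy5 or the Cy3 channel. The standard deviation of the log2 ratio over these spots was 1.59 to 1.69 in the E47 columns, 1.40 to 1.47 in the Twist1 columns and 1.57 to 1.75 in the Twist2 columns. The median standard deviation of a spot between the 3 columns of a line was 0.20 for E47, 0.47 for Twist1 and 0.241 for Twist2. Twist1 was thus the most variable of the 3 lines. Its first column correlated with the other two Twist1 columns at a mean r of 0.717, while these correlated with each other at 0.914. The same column correlated with the Twist2 columns at a mean r of 0.758 and with the E47 columns at 0.705. In the files that the columns equal, 58.5% to 62.3% of all probes were well above background in the line channel for E47, against 34.4% to 53% for Twist1, 48.8% for the first Twist2 column and 57.8% for the second. The groups do not overlap in this share, and its part in the results below was not tested. The control channel showed no such gap, with 53.4% to 59.5% for E47 and 53.5% to 55.9% for Twist.

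E47 differed from the mean of the Twist lines at 3739 of the 30183 spots tested (12.4%). E47 was higher at 2679 of them (8.88%) and lower at 1060 (3.51%). A call required a limma p under 0.05 after Benjamini-Hochberg adjustment and a difference of log2 ratios of at least 1, which is 2-fold. Differences of 4-fold or more were called at 772 spots (2.56%), 552 with E47 higher (1.83%) and 220 with E47 lower (0.729%). Those of 16-fold or more were called at 94 (0.311%), 59 higher (0.195%) and 35 lower (0.116%). At 2057 of the spots called higher (6.82% of those tested) the 3 E47 columns all lay above the 6 Twist columns, and at 813 of those called lower (2.69%) all lay below them. Over all tested spots such separation, with no other threshold, was seen at 13% upward and 8.9% downward. The count of calls was 2456 without the first E47 column, 5176 without the first Twist1 column and between these without each of the other 7 columns.

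Most of the excess of higher over lower calls lay at dim spots. Spots were ranked by the mean brightness of the control channel over all 21 arrays. In the dimmest of 4 equal groups 1108 spots were called higher and 245 lower, with a median difference of 0.31 over all its spots. In the next groups the counts were 678 and 270, then 508 and 254. In the brightest group they were 385 and 291, with a median difference of -0.17. When each column was levelled against brightness by loess, a setting chosen after seeing these data, the calls numbered 3458, of which 1879 were higher and 1579 lower. The share of higher calls thus went from 71.7% to 54.3%, and 2731 of the 3739 spots were called again with the same sign. Quantile normalisation of the columns gave 57.6%, with 866 higher and 637 lower.

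**Figure D2:**
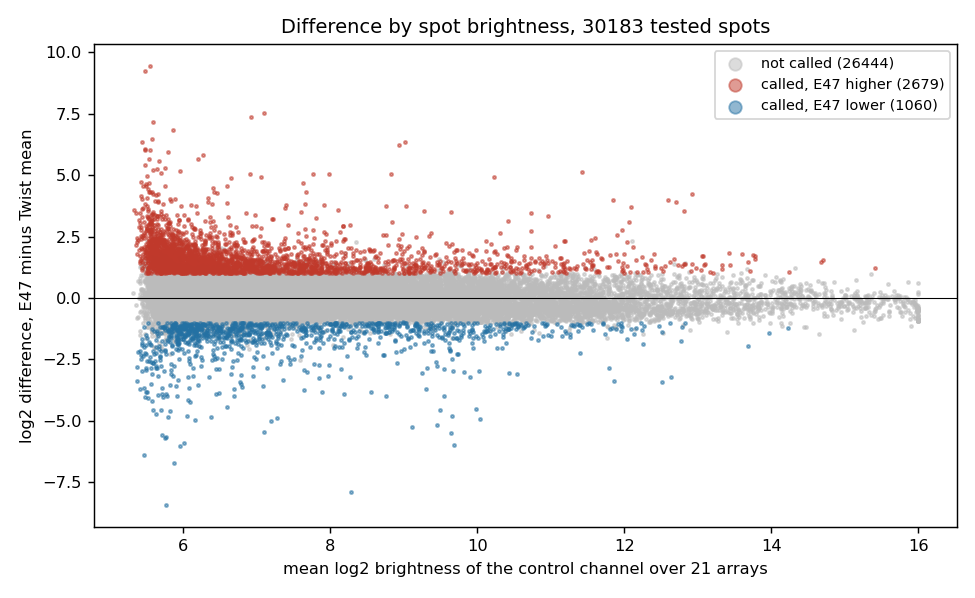
Log2 difference between E47 and the Twist mean (vertical axis) against the mean log2 brightness of the control channel over 21 arrays (horizontal axis), 1 point for each of 30183 spots, with 2679 called higher in red and 1060 called lower in blue. The red points crowd at the dim end, where 1108 spots of the dimmest of 4 groups were called higher.

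Dimness also limits what a fold means here. Of the 2679 spots called higher in E47, 641 were not well above background in the line channel on any of the 5 Twist arrays whose files equal a column. For 248 of the 1060 spots called lower, this held on all 3 E47 arrays. Over all 30183 tested spots it held on all 5 Twist arrays at 4881 and on all 3 E47 arrays at 3390. A ratio of exactly 0 was found in the scanner files only where neither channel was well above background (0 exceptions among 17967 such ratios at tested spots). At least 1 of the 9 columns held such a 0 at 22.6% of the spots called higher, 5.94% of those called lower and 10.3% of all tested spots. With zeros treated as missing, a setting also chosen after seeing the data, 2210 spots were higher and 1007 lower. Among 14057 spots well above background in the line channel on all 8 matched arrays, 574 were higher and 642 lower. That selection leaves out spots that are dim in either line.

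The largest difference of log2 ratios with E47 higher was at spot A_11_P0000026966 (row 429, column 9), although spots this dim in Twist have no firm order. Its log2 ratios were 9.23, 9.37 and 9.35 in the E47 columns, -0.78, 0 and 0 in Twist1 and 0 in all 3 Twist2 columns. E47 RNA was thus far above the control, while neither channel rose clearly above background on the Twist arrays. The difference was 9.44 ± 0.58 (SE, limma adjusted p = 4.66e-09). The line channel was not well above background on any of the 5 Twist arrays with a file, so the brightness of that channel gives only a bound: E47 was at least 24.3-fold brighter (log2 brightness 11.47 against 6.87).

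A_11_P0000013568 (row 173, column 40) had ratios of 8.92, 9.17 and 9.63 in E47 and 0 in all 6 Twist columns. It differed by 9.24 ± 0.18 (SE, adjusted p = 9.11e-16), the smallest p of all spots. Its Twist, Zeb1 and Zeb2 columns were all at exactly 0 and add no spread to that error. By brightness E47 was at least 24.6-fold higher. Other lines were raised over control at both spots: Snail2 had mean ratios of 6.41 and 5.89 at them, and Snail1 2.15 and 7.06. E47 nevertheless exceeded the mean of the other 4 lines by 6.19 and 6.0, and its 3 columns lay above all 18 other columns.

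At 2 spots the E47 columns were raised over control and the Twist columns lowered. A_11_P0000014363 (row 242, column 77) had 3.83, 4.33 and 3.98 in E47, -3.85, -2.86 and -2.22 in Twist1 and -3.48, -4.41 and -3.95 in Twist2. A_11_P000005187 (row 207, column 13) had 4.01, 3.85 and 4.12 in E47, -3.62, -2.67 and -2.37 in Twist1 and -3.45, -4.33 and -3.79 in Twist2. The control channel was well above background at both spots on all 5 Twist arrays and the line channel on none, so the Twist lines gave less signal here than the control. The differences were 7.51 ± 0.89 and 7.36 ± 0.33 (SE), and by brightness E47 was at least 15.7-fold and at least 16-fold higher. All 12 columns of the other 4 lines were also below 0 at the second of these spots, from -4.91 to -2.80. E47 was there the one line of the 7 with ratios above 0, 8.13 over the mean of the other 4 lines.

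The other 4 of the 8 spots with the largest differences were near or at 0 in Twist and high in E47. A_11_P0000028250 (row 132, column 81) had E47 ratios of 7.05, 7.26 and 7.33, with 0 in 5 of 6 Twist columns and 0.26 in the last. A_11_P000001728 (row 508, column 51) had 7.22, 7.13 and 7.06 in E47 and -0.37 to 1.76 in Twist, a difference of 6.82 ± 0.62 (SE). The line channel was well above background there on only 1 of the 5 Twist arrays with a file. Snail2 was raised there too, with a mean of 4.46, and Zeb1 was at -0.51. A_11_P0000015880 (row 249, column 37) had 6.52, 6.25 and 6.59 in E47 and 0 in every Twist column. A_11_P0000037407 (row 460, column 80) had 6.07, 6.08 and 6.46 in E47, -0.87 in 1 Twist1 column and 0 in the other 5. By brightness E47 was at least 6.31-fold higher at A_11_P0000028250, at least 4.15-fold at A_11_P0000015880 and at least 3.51-fold at A_11_P0000037407.

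A_11_P0000010244 (row 226, column 34) was named for its small p rather than its size. Its ratios were 4.47, 4.43 and 4.78 in E47 and 0 in all 18 other columns. The difference of 4.56 ± 0.12 (SE) had an adjusted p of 7.09e-14, but the 18 zeros add no spread to the estimate of error. By brightness E47 was at least 1.93-fold higher. At A_11_P0000037407 too, all 12 columns of the other 4 lines were at 0.

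**Figure D3:**
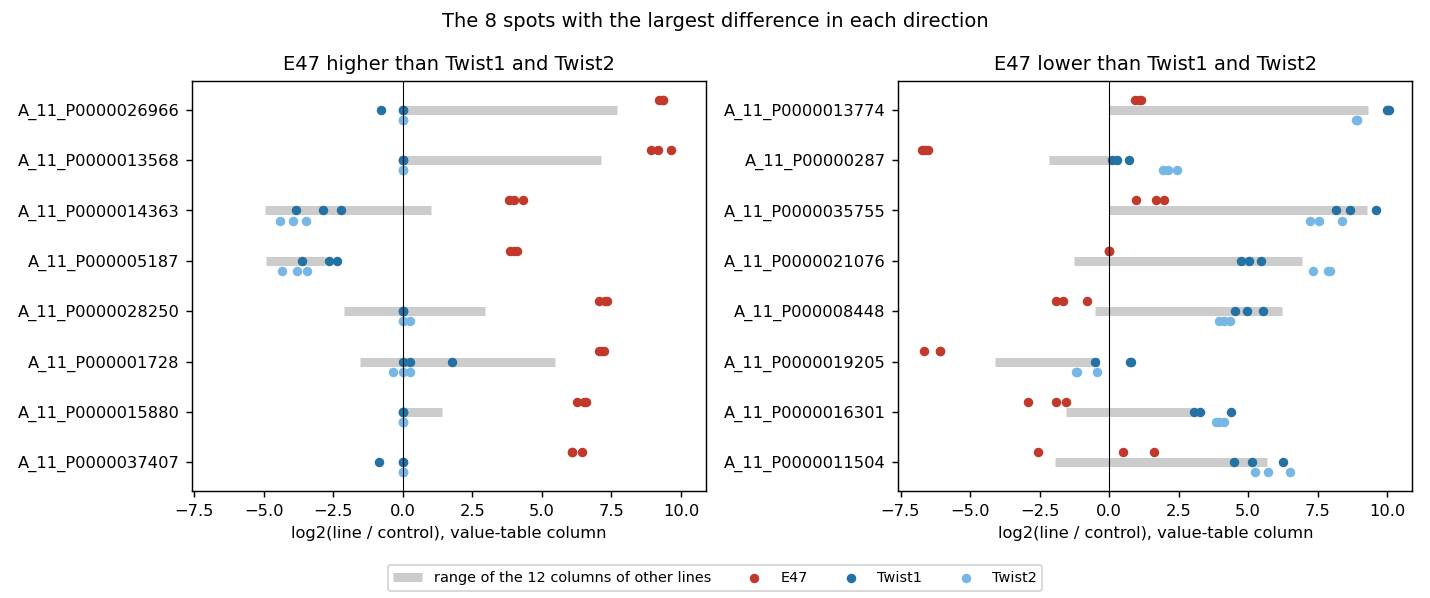
Log2 ratio of line over control in each value-table column (horizontal axis) for the 8 spots with the largest difference in each direction (vertical axis), with E47 in red, Twist1 in dark blue, Twist2 in light blue and the range of the 12 columns of Snail1, Snail2, Zeb1 and Zeb2 as a grey bar. The 3 red points lie apart from all 6 blue points at each spot, as the rule for these spots requires.

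In the other direction, A_11_P0000013774 (row 295, column 24) was far above control in Twist and dim in both channels on the E47 arrays. Its ratios were 0.92, 1.16 and 1.07 in E47, 10.01, 10.04 and 10.07 in Twist1 and 8.93, 8.91 and 8.87 in Twist2. The difference was -8.42 ± 1.05 (SE, adjusted p = 2.44e-05). The error is drawn from all 7 lines, and the call was lost with the slide of the equal file as a block (-8.4, adjusted p = 0.0603). The line channel was not well above background on any E47 array, and Twist was at least 29.8-fold brighter. A_11_P0000035755 (row 297, column 76) was alike, with 0.97, 1.68 and 1.99 in E47 against 7.21 to 9.59 in Twist and a bound of at least 15.6-fold. Snail1 and Snail2 were also high at these spots, with means of 8.52 and 5.93 at the first and 9.17 and 4.88 at the second, while Zeb1 was at 0.06 and 0.

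A_11_P00000287 (row 139, column 30) was lowered in E47 and not in Twist. Its ratios were -6.61, -6.51 and -6.74 in E47, 0.10, 0.72 and 0.28 in Twist1 and 2.43, 1.95 and 2.12 in Twist2. The difference of -7.89 ± 0.18 (SE) had an adjusted p of 6.07e-15. The line channel was not well above background on any E47 array, while the control channel was on all of them, and Twist was at least 8.62-fold brighter. The other 4 lines ran from -2.15 to 0.41, so the E47 columns lay below all 18 others, with a difference of -5.57 from the mean of the other 4 lines. That position is required by 1 of the rules that named this spot.

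A_11_P0000019205 (row 81, column 16) showed the same pattern, with -6.08, -6.66 and -6.09 in E47 and -1.18 to 0.78 in Twist. Its difference of -5.98 ± 0.40 (SE) corresponds to a 63.3-fold lower ratio, measured with the line channel well above background on 2 of 3 E47 arrays. A_11_P0000021655 (row 395, column 18) had -4.95, -4.90 and -4.53 in E47, not well above background in the line channel on any array, and -0.23 to 1.24 in Twist, which was at least 2.6-fold brighter. A_11_P0000028774 (row 399, column 75) had -3.32, -3.75 and -3.43 in E47 and 0.47 to 1.55 in Twist, a 23.2-fold difference with every matched array well above background in both channels. At each of these 3 spots the E47 columns lay under all 12 columns of the other 4 lines, whose lowest values were -4.1, -1.96 and -1.36. A rule that named A_11_P0000019205 requires this position, while A_11_P0000021655 and A_11_P0000028774 were named for their p.

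The remaining large differences with E47 lower were raised in Twist, and at each of them at least 1 other line was raised too. A_11_P0000021076 (row 372, column 71) was at 0 in all 3 E47 columns and at 4.73, 5.48 and 5.03 in Twist1 and 7.87, 7.33 and 7.96 in Twist2. A_11_P000008448 (row 354, column 34) had -1.64, -0.81 and -1.90 in E47 against 3.97 to 5.53 in Twist. Zeb1, Zeb2 and Snail2 were raised there too, with means of 5.84, 3.9 and 3.39, while Snail1 was at -0.06. A_11_P0000016301 (row 155, column 58) had -1.56, -1.90 and -2.92 in E47 against 3.07 to 4.40. The line channel was below the threshold on every E47 array at all 3 of these spots, and Twist was at least 4.63-fold, 2.76-fold and 3.45-fold brighter. A_11_P0000011504 (row 448, column 41) varied widely within E47, at 0.50, -2.57 and 1.61, against 4.49 to 6.49 in Twist. Its line channel was well above background on 1 of 3 E47 arrays. Snail2 was raised at A_11_P0000021076, A_11_P0000016301 and A_11_P0000011504, with means of 6.16, 2.77 and 3.85. Zeb1 was at -0.42, 1.76 and -0.49 there, and Snail1 at 0.67, -0.8 and 4.7. A_11_P0000036055 (row 76, column 63) had -1.83, -2.12 and -2.04 in E47 and 3.04 to 4.66 in Twist, a 44.7-fold difference with the line channel well above background on every matched array. All 12 columns of the other 4 lines were raised there too, from 1.19 to 4.17. At this spot and at A_11_P000008448 the E47 columns lay below all 18 others, as a rule that named them requires.

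Spots where E47 and Twist lay on opposite sides of the control were taken as a group of their own. There were 283 called spots (0.938% of those tested) with all E47 columns above 0 and all Twist columns below it, and 120 (0.398%) with the reverse. With no other threshold these sign patterns were seen at 1.29% and 0.822% of the tested spots. Both comparisons with control share the control channel, so only the values are given. Besides those above, the rule named A_11_P000007100 (row 202, column 5), with 1.53, 0.92 and 1.52 in E47, -6.68, -5.47 and -4.96 in Twist1 and -4.19, -4.35 and -4.48 in Twist2. It also named A_11_P0000020257 (row 175, column 79), with 1.5, 0.9 and 1.42 in E47 and -6.63 to -4.03 in Twist. At both spots Snail1 and Snail2 were lowered like Twist, with means of -4.15 and -5.98 at the first, and the Zeb lines were raised like E47, with 2.38 in Zeb1 and 1.21 in Zeb2. By line means E47 and both Zeb lines thus stood above the control and both Twist and both Snail lines below it. The line channel was well above background on 2 of the 5 Twist arrays at each spot.

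E47 also stood apart from every other line at part of these spots. Of the spots called higher, the 3 E47 columns lay above all 18 other columns at 1045 (3.46% of those tested), and of those called lower they lay below all 18 at 328 (1.09%). The 6 Twist columns lay outside all 15 other columns at 17 spots with E47 higher (0.0563%) and 47 with E47 lower (0.156%). These counts cannot be compared directly, since 6 columns of 2 lines lie outside the rest less readily than 3 columns of 1 line. How often such positions occur over all tested spots, with no call required, was not counted. Over all tested spots E47 differed from the mean of the other 4 lines at 9733 (32.2%), 5197 higher (17.2%) and 4536 lower (15%), and the Twist mean at 5646 (18.7%), 2393 higher (7.93%) and 3253 lower (10.8%). Over the 2679 spots called higher, the median difference of E47 from the mean of the other 4 lines was 1.40 and that of the Twist mean from them -0.18. Over the 1060 called lower these medians were -1.29 and 0.31, and over all tested spots 0.02 and -0.10. The comparisons share columns with the one that chose the spots, so these medians are descriptions.

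The 7 lines can also be set side by side at the called spots. At the spots called higher the median ratio was 1.46 in E47, 0.47 in Snail2, 0.15 in Twist2, 0 in Zeb2, -0.11 in Snail1, -0.17 in Zeb1 and -0.39 in Twist1. At the spots called lower it was -0.92 in E47, 0.07 in Snail2, 0.27 in Snail1, 0.30 in Zeb2, 0.41 in Zeb1, 0.45 in Twist2 and 0.76 in Twist1. Snail2, a zinc-finger repressor of E-cadherin whose columns are not part of this difference, lay nearest to E47 in both sets, and Twist1 lay farthest. The E47 and Twist columns chose these spots, so the distance between them is a description. Labels of E47 and Snail2 conflict too. The third E47 column equals the file recorded for the first Snail2 sample, and the first Snail2 column equals that of the first E47 sample. Over all tested spots the medians of the 7 lines lay between -0.16 and 0.04.

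**Figure D4:**
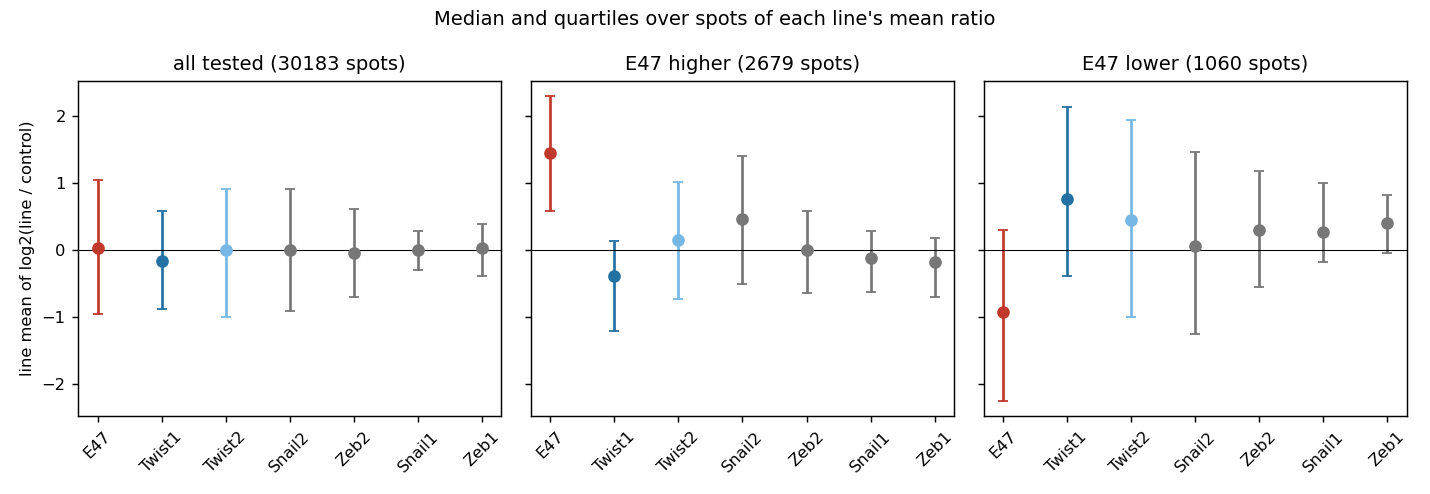
Median (point) and quartiles (bars) over spots of each line's mean log2 ratio to control, for all 30183 tested spots, the 2679 called higher in E47 and the 1060 called lower. E47 stands at 1.46 and -0.92 in the right panels, and Snail2 is the line next to it in both.

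At 8 named spots the Twist columns lay outside all 15 other columns, as the rule for them requires. A_11_P000005753 (row 415, column 23) had 0.98, 0.93 and 0.92 in E47 and -2.20 to -1.04 in Twist, with the line channel well above background on 1 of 5 Twist arrays. The Twist mean lay 1.95 under the other 4 lines (adjusted p = 1.23e-05), while E47 lay 0.73 over them (adjusted p = 0.0533). A_11_P0000030146 (row 273, column 55) had 0.75, 0 and 0.63 in E47 and 4.0 to 6.44 in Twist, and A_11_P0000021149 (row 370, column 73) had 0.10, 0.25 and 0.15 against 3.73 to 6.07. The Twist means exceeded the other 4 lines by 4.45 and 4.44 there, and E47 differed from those lines by -0.15 and -0.37 (adjusted p = 0.84 and 0.337). By brightness Twist was at least 2.68-fold higher at the first, and at the second the line channel was well above background on 1 of 3 E47 arrays. At A_11_P000006988 (row 506, column 32) and A_11_P0000010068 (row 197, column 38) E47 was raised over the other 4 lines by 1.88 and 1.81, and Twist by 4.77 and 4.51. The call at A_11_P0000010068 was lost with the slide of the equal file as a block, at -2.09 against -2.7 as reported (adjusted p = 0.0919).

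At the last 3 of the 8 spots both E47 and Twist lay below the mean of the other 4 lines. A_11_P0000017888 (row 301, column 2) had 0.60 to 0.75 in E47 and -2.12 to -0.58 in Twist, with differences from the other 4 lines of -0.69 for E47 and -2.39 for Twist. Its difference of 1.7 was 1.28 and no longer called when columns were scaled (adjusted p = 0.108). The call was also lost with the recorded slide as a fixed block (1.62, adjusted p = 0.0591) and with the slide of the equal file (1.65, adjusted p = 0.113). A_11_P0000014966 (row 225, column 35) had -2.92 to -2.60 in E47 and -4.37 to -3.71 in Twist. Its line channel was not well above background on any Twist array, and the bound for E47 was 1.13-fold, with no allowance for error. With the slide of the equal file as a block the call at this spot was lost, at a difference of 1.37 against 1.26 as reported (adjusted p = 0.0657). A_11_P000001037 (row 212, column 83) had 2.84 to 3.15 in E47 and 0 in all Twist columns, with 1.65 to 6.0 in the other 4 lines and a bound of at least 1.39-fold.

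More spots were called against Twist1 than against Twist2. E47 differed from Twist1 at 6935 spots (23%), 4529 higher (15%) and 2406 lower (7.97%), and from Twist2 at 1819 (6.03%), 1200 higher (3.98%) and 619 lower (2.05%). The difference between these counts was not tested. E47 columns correlated with Twist1 columns at 0.641 to 0.71 and with Twist2 columns at 0.832 to 0.859, ranges that do not overlap. They correlated with Snail2 columns at 0.805 to 0.854. The Twist lines differed from each other at 10.4% of all tested spots, with Twist1 higher at 4.15% and lower at 6.26%, and at 25.3% of those called higher in E47, 627 of 678 with Twist1 the lower line. Among the spots called lower in E47 they differed at 26.9%, with Twist1 the higher line at 237 of 285. Twist columns enter both comparisons, so these shares are descriptions. Centring each column on its median left 3702 spots higher and 3363 lower for E47 against Twist1, in place of 4529 and 2406.

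The slides held the lines unequally. By the files that the columns equal, the first and second E47 columns and the first and second Twist1 columns were on 1 slide. The third E47 column was on another with Snail2, and the third Twist1 column on a further one with the first and second Twist2 columns. For the block below, the third Twist2 column, which equals no file, took the slide of its nearest file, that of the other Twist2 columns. Within the slide that held both lines, E47 differed from Twist1 at 5993 spots, 3641 higher and 2352 lower, and 5081 of the 6935 spots were called again with the same sign. No slide held both E47 and Twist2 by these files. With this slide as a fixed block the comparison with the Twist mean fell to 801 calls and that with Twist2 to 261, and of the 3739 spots 3730 kept their direction and 698 their call with the same sign. The differences stayed about as large, with a median of 1.36 against 1.45 at the 3739 spots and 1.6 against 1.7 at those called for Twist2. With the recorded slide as a fixed block the calls numbered 1455. The excess of higher calls against Twist2 was lost under both blocks, with 133 higher and 128 lower for the slide of the equal file and 288 higher and 386 lower for the recorded slide. Scaling the columns to a common spread left 883 calls, 883 of which were among the 3739.

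**Figure D5:**
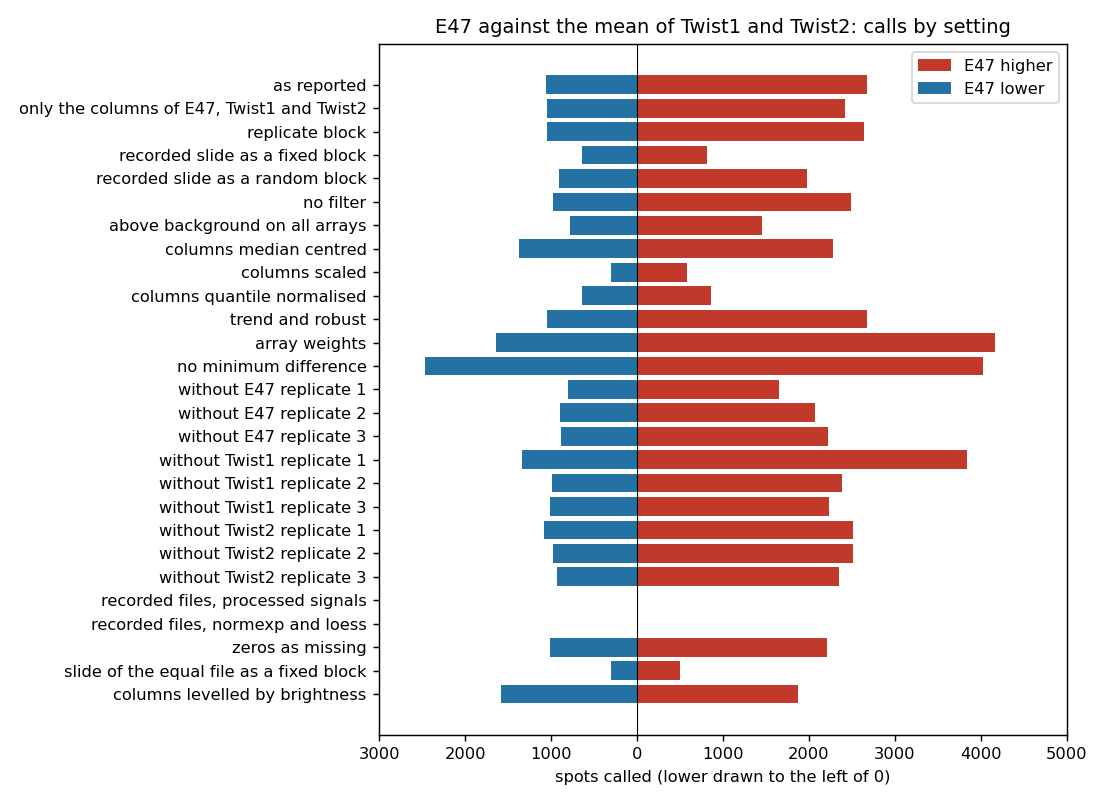
Number of spots called for E47 against the mean of Twist1 and Twist2 (horizontal axis, higher to the right and lower to the left of 0) under each processing setting (vertical axis). The count is 3739 as reported, 801 with the slide of the equal file as a block and 0 for the scanner files under their recorded samples.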

How the data were processed

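The scanner files were written by Agilent Feature Extraction 10.7.1.1, per the file headers, or 10.0, per the submitters' processing notes. They hold intensity values of each spot and, as deposited, the log10 ratio of Cy5 over Cy3. The value table, also deposited as log10 ratios, has a median of 0 in every column over all probes. How it was processed further is not stated in the labels. Ratios were multiplied to the log2 scale. A fit in limma 3.58.1 (R 4.3.3) of 7 line means over all 21 columns, with lmFit and eBayes, gave each difference, with p-values adjusted over 30183 spots. Recorded files were also corrected by normexp (offset 50) and loess, leaving out 1417 control spots. These intensities, after A-quantile normalisation, gave the lower bounds: the bright group's mean against, on each dim array, the higher of the spot's own value and the lowest well above background. The bounds make no allowance for measurement error. Where the spot's own value was the higher, as at A_11_P0000014966, the bound is the measured difference. The third Twist2 column, which has no file, is left out of bounds and flags. For columns of E47 and Twist2 with the same replicate number, deviations from the line means correlated at r = 0.286, 0.129 and 0.102. There is no source for a pairing beyond the number. Columns of different numbers were not set beside these, so a pairing is not shown. The fit was tested on simulated data.

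The spots named are, in each direction and among called spots whose E47 and Twist columns do not overlap, the 8 with the largest difference, the 4 largest with E47 and Twist on opposite sides of 0, the 4 largest with E47 outside all 18 other columns, the 4 with Twist farthest from the other 4 lines while outside the 15 other columns, and the 3 with the smallest p, 30 in all. The comparison and this rule were chosen with earlier results of these data known. The alternatives tried were blocks for slide and replicate number, other filters, centring, scaling, variance models and sources, and leaving out each column.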

Additional observations from a re-analysis of the deposited data

Results flagged for a closer look

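At 4 of the 30 named spots the Twist lines themselves differed, so that the distance of E47 from Twist1 was not its distance from Twist2. Over all tested spots 10.4% were called between the Twist lines, and among the spots called higher and lower in E47 25.3% and 26.9% were, so 4 of 30 is no excess. Each was called by limma in the comparison of Twist1 with Twist2. Twist1 minus Twist2 was -1.79 at A_11_P00000287 (adjusted p = 6.96e-05), where the difference of E47 was -6.99 from Twist1 and -8.78 from Twist2 on the log2 scale. At A_11_P0000021076 it was -2.64 (adjusted p = 0.00673), at A_11_P0000021149 -1.95 (adjusted p = 0.00413) and at A_11_P0000021655 -1.04 (adjusted p = 0.0118). In all 4 the 3 Twist1 columns lay below the 3 Twist2 columns. Lines of 3 columns were not screened for single outlying columns.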

How the results depend on the processing

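As reported, 3739 spots were called for E47 against the Twist mean, 6935 against Twist1, 1819 against Twist2, 9733 for E47 against the other 4 lines, 5646 for the Twist mean against them and 3142 for Twist1 against Twist2, and the counts below keep to these comparisons. The recorded slide as a fixed block gave 1455 for the Twist mean and 674 for Twist2, and as a random block 1150 for Twist2. The slide of the equal file as a block gave 801 and 261. Keeping the probes above background on all arrays, which tests fewer probes, gave 2236, 4588 and 1191 for the first 3 comparisons. Scaling gave 883, 2198 and 313 for these, 5453 for E47 against the other lines and 275 between the Twist lines, and quantile normalisation 1503, 3125, 667, 6420 and 548 in the same order. Array weights gave 5802 for the Twist mean, 3481 for Twist2 and 5618 between the Twist lines. With no minimum difference there were 6487 for the Twist mean, 15463 for E47 and 14362 for the Twist mean against the other lines. The cause of these changes was not tested. Leaving out 1 column at a time gave 2456 to 5176, 5080 to 8666 and 1188 to 2298 for the first 3 comparisons, 8482 to 9843 and 5265 to 6290 against the other lines, and 1755 to 4449 between the Twist lines. The count against Twist2 was 1188 without the first E47 column, and that between the Twist lines 2018 without the third Twist1 column and 1755 without the first Twist2 column.

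Between Twist1 and the other two lines, the deviations of columns with the same replicate number correlated at -0.0578 to 0.133, and the columns there share only a number. With a replicate block the counts were 3685, 6840 and 1794 for the first 3 comparisons, within 1.5 times the counts as reported. Of the 30 named spots, 30 kept their call with the block.

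The share of higher calls against Twist1 was 65.3% as reported, 52.4% after median centring, 54.1% after quantile normalisation and 50.2% after levelling by brightness. Between Twist1 and Twist2 it was 39.8% as reported, 53.2% after centring, 50% after levelling and 40.3% after quantile normalisation. For the Twist mean against the other lines it was 42.4% as reported, 51.5% and 53.2% after quantile normalisation and levelling.

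Under the recorded samples, processed signals gave 0, 0 and 0 calls for the first 3 comparisons, 4 for E47 and 1239 for the Twist mean against the other lines and 0 between the Twist lines, by limma, with 960, 1502, 645 and 1141 spots at an unadjusted p under 0.05 in the comparisons with 0 calls. Normexp and loess gave 0, 0, 0, 6, 96 and 0, with 743, 1020, 436 and 538. Of the 30 named spots 24 reversed with processed signals. Those with E47 higher in the columns came out at -2.05 at A_11_P0000026966, -0.89 at A_11_P0000013568, -1.93 at A_11_P0000014363, -2.11 at A_11_P000005187, -2.38 at A_11_P0000028250, -0.47 at A_11_P000001728, -1.82 at A_11_P0000015880, -1.88 at A_11_P0000037407, -3.12 at A_11_P000007100, -3.21 at A_11_P0000020257, -0.16 at A_11_P0000017888, -1.48 at A_11_P0000010244. Those with E47 lower came out at 0.99 at A_11_P0000013774, 1.33 at A_11_P00000287, 0.98 at A_11_P0000035755, 0.32 at A_11_P0000021076, 1.56 at A_11_P000008448, 2.25 at A_11_P0000019205, 1.52 at A_11_P0000016301, 1.24 at A_11_P0000011504, 1.75 at A_11_P0000036055, 0.80 at A_11_P0000030146, 1.71 at A_11_P0000021655, 0.63 at A_11_P0000028774. With normexp and loess 23 reversed, those with E47 higher to -0.59 at A_11_P0000026966, -0.61 at A_11_P0000013568, -1.12 at A_11_P0000014363, -1.36 at A_11_P000005187, -0.73 at A_11_P0000028250, -0.37 at A_11_P0000015880, -0.56 at A_11_P0000037407, -1.75 at A_11_P000007100, -1.59 at A_11_P0000020257, -0.12 at A_11_P0000014966, -0.35 at A_11_P000005753, -0.34 at A_11_P0000010244 and those with E47 lower to 1.63 at A_11_P0000013774, 1.40 at A_11_P0000035755, 0.21 at A_11_P0000021076, 1.04 at A_11_P000008448, 1.30 at A_11_P0000019205, 0.61 at A_11_P0000016301, 0.33 at A_11_P0000011504, 1.52 at A_11_P0000036055, 0.53 at A_11_P0000030146, 0.49 at A_11_P0000021655, 0.40 at A_11_P0000028774. In every setting on the value table that tested them the named spots kept their direction. Their E47 and Twist columns do not overlap, by the rule that named them. Leaving out a column or changing the variance model therefore could not have reversed them. Dim line channels limit the folds at 18 of the 30 named spots to bounds. Bounds were given only where no array of a group was well above background. At some other named spots only part of a group's arrays were, as at A_11_P000001728 and A_11_P0000011504.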

Other observations

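A pair of named spots far apart on the array held nearly the same values in every column. A_11_P000007100 (row 202, column 5) and A_11_P0000020257 (row 175, column 79) correlated over the 21 columns with r = 0.999, differed by 0.116 on average and by 0.382 at most on the log2 scale. The pair was noticed after its values were seen. The grid lists them under different IDs, and the transcripts at these places are not identified here.

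The share of spots called between E47 and Twist fell along the length of the array, from 13.7% in the first of 4 equal bands of rows to 12.7%, 12% and 11.2% in the next ones. Higher calls made up most of this, from 10.2% to 7.85%, while lower calls stayed between 3.37% and 3.7%.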
